A study of Homo sapiens with 15 samples.

Results

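The 8 RNA-Seq libraries labelled control and NFATC4-KO fell into 2 sets of 4 that cross their labels, out of 15 libraries in the series. Set A held control 1, control 2, NFATC4-KO 1 and NFATC4-KO 2, and set B held control 3, control 4, NFATC4-KO 3 and NFATC4-KO 5. The sets were chosen on measured expression levels, NFATC4 and CYP11B2 among them, and not on any label. STAR, FN1 and AKR1C3 were given as markers together with the sets. Every difference between the sets is therefore given below as a description with no test. All libraries came from NCI-H295R, a human adrenocortical carcinoma cell line that makes steroid hormones. NFATC4-KO cells had received pSpCas9 plasmids with a pair of guides against NFATC4 and had been grown from single seeded cells, and their controls were NCI-H295R cells labelled WT that had received plasmids without those guides. How many clones the libraries came from, and whether they were separate cultures, is not given in the sources used here. The other 7 libraries were WT cells 3 days after transfection with pcDNA3.T7, either empty (mock, 4 libraries) or carrying delta-NFAT3 (ΔNFATC4, 3 libraries), an NFATC4 that lacks its regulatory N-terminal part and is always active.

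NFATC4 is a transcription factor that the calcium-dependent phosphatase calcineurin releases into the nucleus, where NFAT proteins bind sites around a GGAAA core. In the adrenal cortex, angiotensin II and potassium raise calcium in the cells of the outer zone, which make aldosterone with the enzyme CYP11B2. Steroid synthesis starts when STAR carries cholesterol into mitochondria, and the enzymes CYP11A1, HSD3B2, CYP17A1, CYP21A2 and CYP11B1 lead to cortisol and androgens. H295R cells carry out all of these branches. They express the steroidogenic regulator NR5A1 and high IGF2, and both were abundant in all 8 libraries.

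NFATC4, the targeted gene, is one of the genes whose levels chose the sets, so its values are a description. It stood at 114.5, 109.9, 92.7 and 85.4 CPM (read counts relative to library size, scaled by TMM) in control 1, control 2, NFATC4-KO 1 and NFATC4-KO 2. The levels in control 3, control 4, NFATC4-KO 3 and NFATC4-KO 5 were 44.8, 54.0, 57.6 and 53.6 CPM. The highest set B library was thus at 57.6 CPM and the lowest set A library at 85.4 CPM, while the 4 mock libraries lay between 87.6 and 106.1 CPM. Read counts over the whole gene do not show whether the guides' cut sites were altered, and which cells were edited was not tested.

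CYP11B2, the aldosterone synthase, parted the sets more widely. It had 72, 72, 48 and 78 read counts in the set A libraries, in the order given above, and 0, 3, 2 and 2 in the set B libraries. Its closest relative CYP11B1, which makes cortisol, averaged 1.29 CPM in set A and 0.0321 CPM in set B. The pair is nearly identical in sequence, so reads could be divided unevenly between them. In mock libraries CYP11B2 averaged 2.33 CPM, within the range of 2.33 to 3.27 CPM seen in set A. Set B was therefore the side that stood apart from the mock cells for both NFATC4 and CYP11B2.

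**Figure D1:**
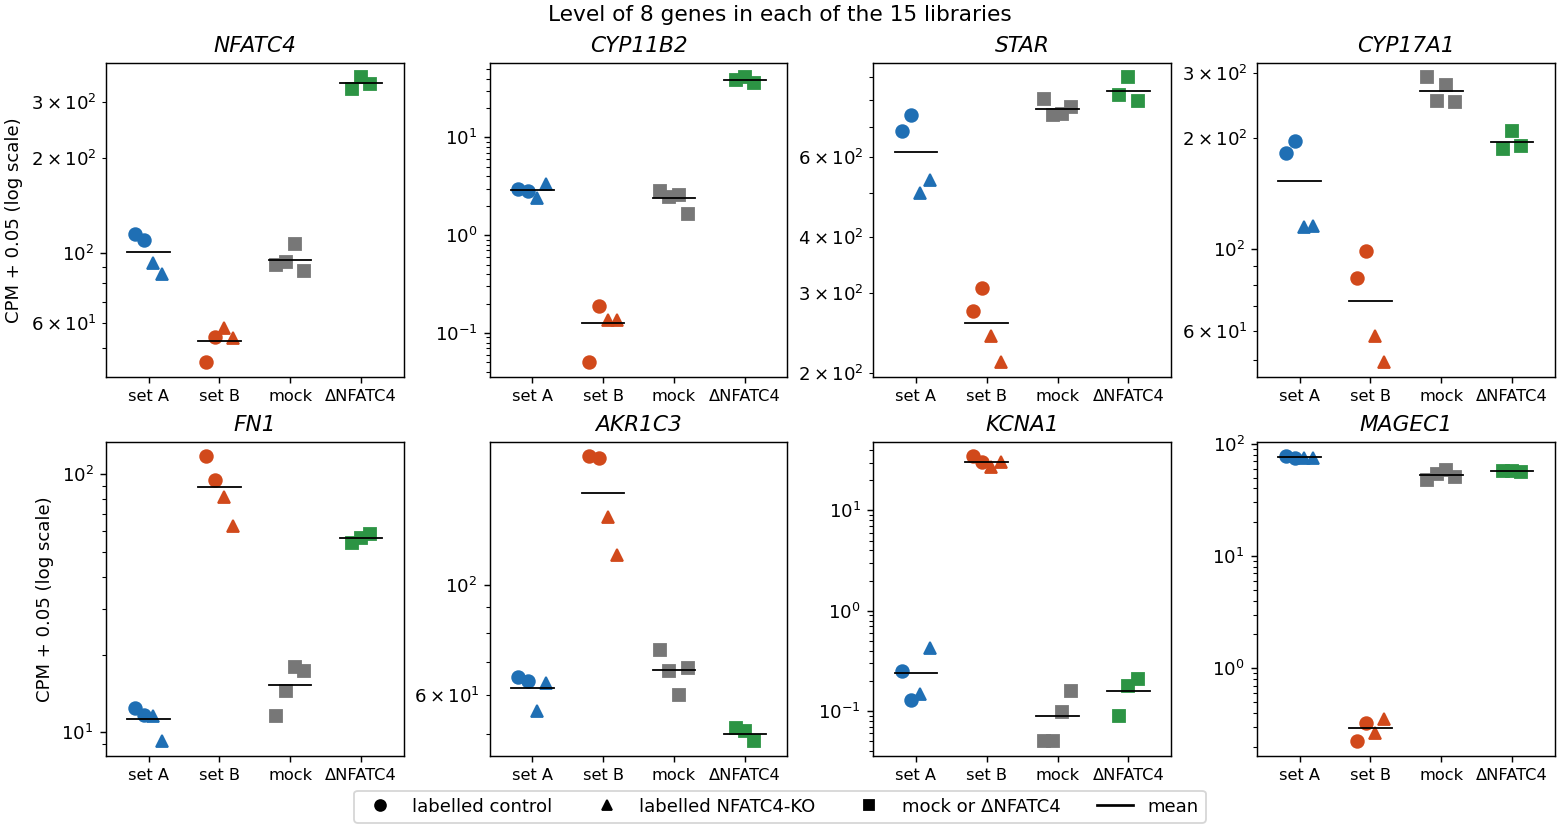
Each panel gives one gene's level as CPM + 0.05 on a log axis in 15 libraries; circles are libraries labelled control, triangles NFATC4-KO, squares mock or ΔNFATC4, and black lines the means. In all 8 panels the 4 set B libraries lie on one side of the 4 set A libraries, with labels mixed within each set.

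The split ran through the whole transcriptome. On the log2 CPM scale the first principal component of the 8 libraries held 74.4% of the variance and separated the sets. Libraries of the same set correlated at 0.993 to 0.9965 in set A and 0.988 to 0.9954 in set B, whatever their label, and at 0.9603 to 0.9666 across sets. These are correlations over 14368 genes that share library chemistry, and genes are not independent replicates. Depth did not divide the sets: set A had assigned totals of 20.6 to 25.9 M counts and set B of 21.6 to 23.0 M counts, with 16180 to 16387 and 15699 to 16181 genes detected.

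A gene was said to part the sets when no set A library overlapped a set B library and the mean log2 CPM differed by at least 1, which is 2-fold. By that description 453 genes were higher in set B (3.15% of the 14368 kept) and 677 were lower (4.71%). Without the 2-fold limit, 2481 genes were higher (17.3%) and 2880 lower (20%). LRP8 at 1.01 and LGR4 at -1.01 lay just inside the limit, and HOMER3 at 0.98 and STARD4 at -0.997 just outside it. The same description applied to the labels, control against NFATC4-KO, found 14 genes higher and 4 lower. The median difference over all kept genes was -0.0055. TMM scaling brings the typical difference between libraries near 0, so this value does not show whether all genes shifted together.

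Set A resembled the mock cells. Of the 1130 genes that part the sets, 1043 (92.3%) had a mock mean nearer to set A than to set B. All 4 mock libraries lay below all 4 set B libraries for 408 of the 453 genes higher in set B (90.1%). They lay above all set B libraries for 614 of the 677 genes lower in set B (90.7%). Mock libraries correlated with set A at 0.9807 to 0.9894 and with set B at 0.9485 to 0.9603.

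Some genes that were well expressed in set A were nearly silent in set B. With at least 2 CPM on average in one set and at most 10 read counts in every library of the other, 39 genes were on in set A only (0.271% of kept genes) and 4 in set B only (0.0278%). MAGEC1, a cancer-testis antigen, had 1552 to 1915 read counts in the set A libraries and 4 to 7 in the set B libraries. CTPS2, which makes CTP, had 309 to 442 against 0 to 5 read counts. The protease inhibitor SERPINB1, with 121 to 221 read counts in set A, and the forkhead gene FOXR2, with 92 to 152, had 0 counts in all 4 set B libraries. A count of 0 is compatible with up to 3 counts, or 0.128 to 0.138 CPM at these depths, for counting error only. Mock libraries averaged at least 2 CPM for 35 of the 39 genes, and the lowest mock mean was 1.17 CPM.

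The 39 genes had no single location. They lay on 17 chromosomes, with 4 on the X chromosome (MAGEC1, CTPS2, GSPT2 and FOXR2). They included the collagen COL22A1, the transcription factors GATA2, IRX2, TLX1 and ZBTB16, the caveola protein CAVIN1 and the selenoprotein GPX3. CYP11B2 was one of them. In the other direction, the potassium channel gene KCNA1 had 2 to 9 read counts in set A and 631 to 802 in set B, at 26.9 to 34.6 CPM. The phospholipase PLA2G2A, the histamine methyltransferase HNMT and the aldo-keto reductase AKR1B10 were the other 3, at 2.00 to 2.48 CPM on average in set B.

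The 12 largest mean differences in each direction, among genes whose sets did not overlap and whose higher set averaged at least 10 CPM, are given as a description, since their size chose them. Higher in set B, besides KCNA1 and FN1, was LPL, lipoprotein lipase, at 3.31 to 5.27 CPM in set A and 52.7 to 71.3 CPM in set B. NPTX1, a neuronal pentraxin, stood at 9.39 to 13.8 CPM in set A and 141.4 to 153.0 CPM in set B. PTGS1, a cyclooxygenase, stood at 6.69 to 8.87 CPM in set A and 75.9 to 90.4 CPM in set B. All set B libraries lay far above all set A libraries for these genes. GALNT6, a glycosyltransferase gene, was at 3.04 to 4.66 CPM in set A and 48.1 to 59.5 CPM in set B, and the tetraspanin gene TSPAN11 at 3.78 to 5.43 CPM in set A and 83.5 to 100.7 CPM in set B. COL16A1, LRRC55, WSCD1, GRAP and ZNF660 completed the 12, with log2 differences of 2.83 to 3.98.

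Lower in set B, besides MAGEC1, CTPS2 and COL22A1, was GPR183, an oxysterol receptor, at 107.6 to 121.1 CPM in set A and 3.13 to 5.95 CPM in set B. PTN, the growth factor pleiotrophin, stood at 27.4 to 30.4 CPM in set A and 0.726 to 0.900 CPM in set B, and STC1, stanniocalcin, at 13.2 to 15.8 CPM in set A and 0.214 to 0.732 CPM in set B. LY75, TENM3, LGALS8, ACSS3, ACP5 and TFPI2 completed the 12, with log2 differences of -5.53 to -4.16.

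RefSeq promoter windows, the 250 bases before each gene's RefSeq start on GRCh38.p14, were matched for 11161 of the 14368 kept genes. The windows of 2 of the genes most increased in set B and of 2 of those most reduced are shown because NFAT proteins bind GGAAA. Capitals mark GGAAA or its reverse complement TTTCC. TSPAN11 and COL16A1, higher in set B, are at chr12:30926498-30926747 on the plus strand and chr1:31704018-31704267 on the minus strand. MAGEC1 and CTPS2, lower in set B, are at chrX:141903644-141903893 on the plus strand and chrX:16712670-16712919 on the minus strand. The windows of TSPAN11, COL16A1 and CTPS2 lie inside the gene spans of GENCODE release 44, which begin farther upstream.
TSPAN11: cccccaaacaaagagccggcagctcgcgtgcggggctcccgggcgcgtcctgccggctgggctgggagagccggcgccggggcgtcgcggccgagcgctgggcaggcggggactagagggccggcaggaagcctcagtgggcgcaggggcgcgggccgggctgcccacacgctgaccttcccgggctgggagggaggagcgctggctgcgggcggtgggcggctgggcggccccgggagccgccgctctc
COL16A1: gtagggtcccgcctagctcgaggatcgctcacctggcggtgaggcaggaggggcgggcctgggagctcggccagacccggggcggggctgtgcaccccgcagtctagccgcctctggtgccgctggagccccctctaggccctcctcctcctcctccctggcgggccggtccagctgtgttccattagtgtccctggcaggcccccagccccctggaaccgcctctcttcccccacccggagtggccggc
MAGEC1: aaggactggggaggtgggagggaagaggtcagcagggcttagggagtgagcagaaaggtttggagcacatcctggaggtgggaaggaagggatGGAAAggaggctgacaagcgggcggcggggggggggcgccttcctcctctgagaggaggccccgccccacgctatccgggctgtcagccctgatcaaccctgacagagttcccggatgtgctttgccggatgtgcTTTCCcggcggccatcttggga
CTPS2: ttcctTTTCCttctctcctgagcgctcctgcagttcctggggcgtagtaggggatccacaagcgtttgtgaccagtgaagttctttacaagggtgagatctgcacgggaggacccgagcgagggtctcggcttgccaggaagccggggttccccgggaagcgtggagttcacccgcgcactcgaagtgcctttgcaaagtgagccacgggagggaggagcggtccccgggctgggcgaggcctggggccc

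The core was not found in the windows of TSPAN11 and COL16A1, and it occurred at 2 places in that of MAGEC1 and 1 place in that of CTPS2. Across the groups, GGAAA on either strand was present in 48.4% of 343 windows of genes higher in set B, 50.1% of 487 windows of genes lower in set B and 53.3% of all 11161 windows. The CG dinucleotide differed more, with both groups below all kept genes. The median window held 16 CG in genes higher in set B, 17 in genes lower in set B and 21 in all kept genes, and windows with at least 10 CG made up 60.3%, 69.4% and 83%. The 2 motifs can overlap where a C precedes GGAAA or a G follows TTTCC. Both groups were also less abundant, with median levels of 4.32 CPM (higher) and 1.99 CPM (lower) against 27.7 CPM for all kept genes. The part of abundance in the CG counts was not tested. These letter counts are descriptions and not sites.

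Several steroid pathway genes were lower in set B. Of 23 genes for steroidogenic enzymes and their cofactors that were kept, 5 were lower (CYP11B2, CYP11B1, CYP21A2, STAR and CYP17A1) and 1 was higher (CYP19A1, aromatase), against 4.71% and 3.15% of all kept genes. CYP11B2 was among the genes that chose the sets, STAR was a marker given with them, and the list's median difference was -0.11. STAR stood at 685.6, 744.7, 500.6 and 534.4 CPM in set A and at 273.4, 308.1, 240.8 and 210.9 CPM in set B. All set B libraries were thus below the lowest set A library, and within each set both NFATC4-KO libraries were below both controls. CYP17A1, the 17-hydroxylase needed for cortisol and androgens, averaged 152.4 ± 43.4 CPM in set A and 72.3 ± 22.7 CPM in set B (SD, n = 4). In mock cells it averaged 268.1 CPM. CYP21A2, the 21-hydroxylase, averaged 100.8 CPM in set A and 39.1 CPM in set B. CYP11A1, which makes the first cut in cholesterol, differed by -0.34 (log2) without overlap, and HSD3B2 by 0.31 with overlap. NR5A1, the regulator of most of these genes, averaged 416.8 CPM in set A and 349.7 CPM in set B and its sets overlapped.

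Enzymes that reduce or conjugate steroids moved in both directions. AKR1C3, which makes testosterone from androstenedione, stood at 55.6 to 65.0 CPM in set A and at 181.5, 180.4, 136.6 and 114.9 CPM in set B. AKR1C2 averaged 5.43 CPM in set A and 11.2 CPM in set B, and its sequence is close enough to that of AKR1C3 for reads to be shared. SULT2A1, which sulfates DHEA, went the other way, from 135.6 to 52.0 CPM. CYP19A1, which makes estrogens, averaged 47.3 CPM in set A and 104.9 CPM in set B, against 27.5 CPM in mock cells.

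Of 31 genes for cholesterol supply kept, 4 were at least 2-fold lower in set B without overlap, against 4.71% of all kept genes. Without overlap at any size 18 were lower and 3 higher, against 20% and 17.3% of all kept genes, and the median difference was -0.44. SOAT1, which esterifies cholesterol for storage, stood at 526.7, 533.3, 439.9 and 431.3 CPM in set A and at 209.0, 195.6, 182.0 and 185.0 CPM in set B. INSIG1, a sterol-responsive brake on SREBP, averaged 63.3 CPM in set A and 19.2 CPM in set B. LIPE, the lipase that frees stored esters, averaged 45.95 and 17.95 CPM. The receptor SCARB1, which takes up cholesterol from lipoproteins, was nearly level, at 3281 CPM in set A and 3485 CPM in set B.

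Matrix and adhesion genes parted the sets in both directions. Of 35 extracellular matrix genes kept, 9 were higher and 9 lower in set B, and of 32 integrin, cadherin and adhesion genes 7 were higher and 4 lower, against 3.15% and 4.71% of all kept genes. FN1, fibronectin, stood at 12.4, 11.7, 11.5 and 9.18 CPM in set A and at 116.7, 94.7, 81.5 and 62.8 CPM in set B. Other higher genes were NID1, a basement membrane linker, at 118.9 and 383.5 CPM, the fibrillin gene FBN1 at 31.0 and 82.6 CPM, and the integrin subunit gene ITGB5 at 18.1 and 61.1 CPM. Lower genes included COL6A2 at 31.7 CPM in set A and 2.76 CPM in set B, COL18A1 at 36.7 and 10.7 CPM, VCAN at 77.7 and 26.1 CPM and the cadherin gene CDH11 at 11.9 and 1.17 CPM. COL4A5 had 1.84 CPM on average in set A and 0 counts in all set B libraries.

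WNT signaling sustains the outer cortical zone. Of 25 of its antagonists and targets kept, 5 were higher in set B (LGR5, NKD1, DKK1, DKK3 and SFRP1) and 2 lower (LGR4 and SP5), against 3.15% and 4.71% of all kept genes. Without overlap at any size 9 were higher and 6 lower, against 17.3% and 20% of all kept genes, and the median difference was 0.12. SP5 had few reads, at 8 to 14 counts in set A and 0 in set B. SFRP1, a secreted inhibitor, stood at 55.1 to 61.7 CPM in set A and at 296.8, 267.2, 197.0 and 192.3 CPM in set B. LGR5, a stem cell receptor for R-spondin, averaged 15.8 CPM in set A and 70.2 CPM in set B. DKK1, another inhibitor, averaged 2.63 and 15.6 CPM.

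In the TGF-beta, activin and inhibin list 5 of 25 genes were higher (INHBA, FSTL1, SMAD7, ID1 and ID3) and 2 lower (INHBB and TGFBR3), against 3.15% and 4.71% of all kept genes. ID3, a BMP-induced inhibitor of differentiation factors, averaged 49.1 CPM in set A, 165.5 CPM in set B and 17.3 CPM in mock cells, so here set A also stood above the mock cells. Immediate early and ERK-responsive genes had 3 higher members of 25 (FOSL1, IER3 and ETV4), against the same 3.15%, and none lower. IER3 had few reads, at 2 to 4 counts in set A and 8 to 19 in set B, and INHBB had 5 to 14 and 1 to 3. Of the NFAT family, NFATC1 parted the sets, at 8.44 CPM in set A and 3.89 CPM in set B, while NFATC3 differed by -0.77 and NFATC2 by 0.80 (log2), both without overlap. RCAN1, a calcineurin inhibitor that NFAT induces, differed by 0.18, while its relative RCAN2 parted the sets, at 3.77 CPM in set A and 1.31 CPM in set B. The orphan nuclear receptors NR4A1, NR4A2 and NR4A3, which act on CYP11B2, differed by -0.38, -0.37 and -0.18, NR4A1 alone without overlap.

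IGF2, the growth factor that adrenocortical carcinoma cells typically overexpress, stood at 4155, 3936, 4516 and 3914 CPM in set A and at 1513, 1667, 1824 and 2053 CPM in set B. INS-IGF2, which overlaps it, averaged 584.2 and 247.3 CPM, and the reads of the overlapping pair cannot be separated with certainty. Of 20 imprinted growth genes and their partners kept, 5 were lower in set B (with CDKN1C, PEG10 and IGFBP3) and 1 higher (IGFBP5), against 4.71% and 3.15% of all kept genes. Among 20 neuroendocrine and secretory granule genes 6 were lower (SCG2, CPE, TAC1, UCHL1, INSM1 and CADPS), against 4.71% of all kept genes. VGF alone was higher, against 3.15%, at 45.9 to 67.1 CPM in set A and 235.3 to 293.7 CPM in set B. CDKN1C, TAC1 and UCHL1 had few reads, at 5 to 21, 8 to 15 and 12 to 16 counts in set A. In set B they had 1 to 4, 1 to 3 and 0 to 7.

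In other lists at most 2 members in each direction reached 2-fold without overlap, against 3.15% higher and 4.71% lower among all kept genes. None of 32 DNA replication and mitosis genes did. Without overlap at any size 17 of them were lower in set B and 1 higher, against 20% and 17.3% of all kept genes, with a median of -0.21. None of 28 genes of the amino acid stress and unfolded protein response and none of 13 mitochondrially encoded genes parted the sets. Of 26 NRF2 and glutathione genes 13 were higher without overlap at any size, against 17.3% of all kept genes, and 4 lower, with a median of 0.28, and GPX3 was at least 2-fold lower. HK2 was the lower one of 30 hypoxia and glycolysis genes at 2-fold. Without overlap at any size 15 of the 30 were lower and 4 higher, against 20% and 17.3% of all kept genes. PHLDA3 was the higher one of 23 p53 targets, with 3 to 7 read counts in set A and 9 to 15 in set B. IFI27 and IFITM1 were the lower ones of 33 interferon genes. SALL1 alone parted the sets among 16 adrenocortical transcription factors (2.95 and 9.91 CPM). Among 31 genes of angiotensin, ACTH and calcium input, ITPR3 was higher and PDE11A and CAMK4 lower, and KCNH2 and KCNK2 were lower among 10 potassium channel genes.

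**Figure D2:**
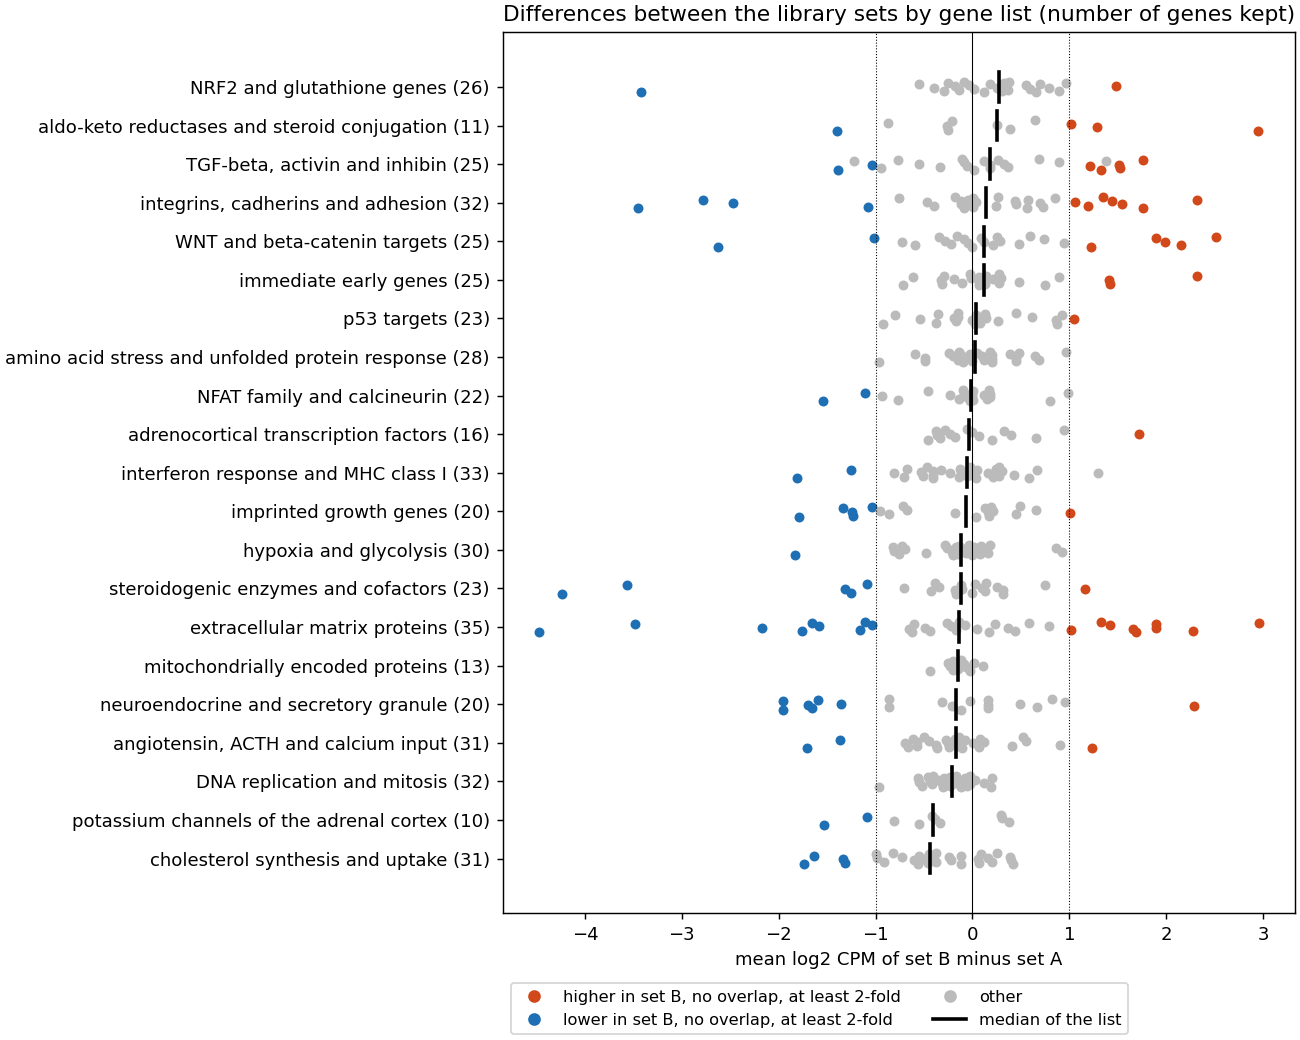
Points are kept genes of each list at the mean log2 CPM of set B minus set A, orange where higher and blue where lower in set B without overlap and by at least 2-fold, grey otherwise; black bars are list medians. List medians lie between -0.44 for cholesterol genes and 0.28 for NRF2 genes, with matrix genes spread in both directions.

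Most markers of other cell types were at or near 0. Markers that stayed under 1 CPM in every one of the 8 libraries numbered 9 of 12 for fibroblasts, 9 of 10 for endothelium, 8 of 10 for blood cells, 9 of 10 for chromaffin and neural crest cells, 8 of 14 for epithelium, 7 of 12 for kidney and 6 of 10 for hepatocytes. TH, PNMT and PHOX2A, which define chromaffin cells, CDH5 of endothelium, CD3E of T cells and HBB of red cells had 0 counts. Kept kidney markers summed to 25.3 to 27.3 and 31.1 to 35.8 CPM, SLC12A1, a kidney transporter gene, being at 2.44 and 8.84 CPM. The part of these markers in the set difference was not tested.

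Several differences followed chromosome position. The longest run of neighboring kept genes that all parted the sets in one direction was 15 genes on chromosome 17, from BLTP2 to MYO18A (GRCh38 chr17:28614446-29180398), all higher in set B. The next longest run in either direction had 4 genes. Over the 15 genes the median difference was 1.59 on the log2 scale, or 3-fold, with a range of 1.27 to 2.08. The 4 set B libraries had medians of 1.36, 1.66, 1.63 and 1.63 against mock cells, and the 4 set A libraries between -0.1 and -0.00835. Among them, BLTP2 encodes a lipid transfer protein (229.4 CPM in set A and 767.9 CPM in set B), SUPT6H a transcription elongation factor (195.8 and 588.1 CPM), RPL23A a ribosomal protein (119.3 and 379.5 CPM), TRAF4 a signaling adaptor (32.2 and 119.1 CPM), ERAL1 a mitochondrial ribosome chaperone (67.5 and 201.2 CPM) and FLOT2 a membrane raft protein (89.8 and 230.2 CPM).

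The run ended abruptly on one side and in steps on the other. The neighbor after it, NUFIP2, differed by -0.31. Before it, SPAG5 and the gene ENSG00000258472, which overlaps SPAG5, differed by 0.90 and 0.88 and did not reach 2-fold, and ALDOC, the third gene before, differed by 0.05. TAOK1 and ABHD15, farther along, differed by -0.16 and 0.01. Of the 14 run genes tested in ΔNFATC4 against mock by edgeR's quasi-likelihood test, 0 rose (1 at an unadjusted p under 0.05, and 0 by DESeq2 and by limma after adjustment) and 1, DHRS13, fell (log2 fold change -0.34, adjusted p = 0.0148). RPL23A has many near-copies in the genome, so its reads are less certain than those of its neighbors. The run was picked out after its values were seen. DNA copy number was not measured in these files.

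**Figure D3:**
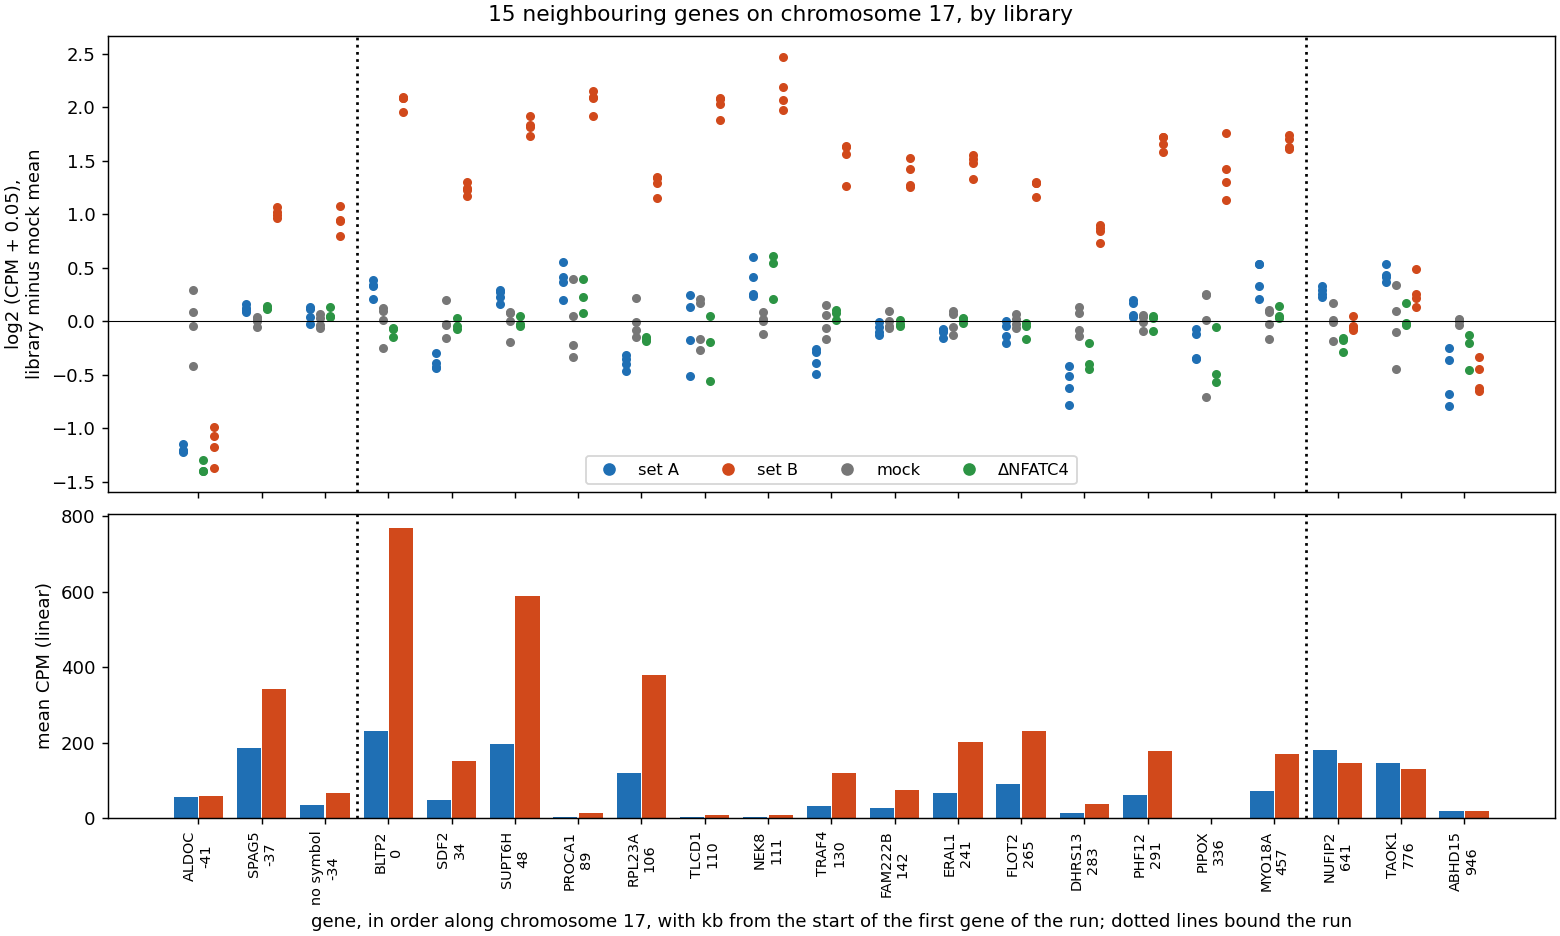
Upper panel, log2 (CPM + 0.05) of each library relative to the mock mean for the run and the 3 kept genes on either side, in order along chromosome 17; lower panel, mean CPM of set A (blue) and set B (orange) on a linear axis from 0. Between the dotted lines the set B points of all 15 genes lie above every other library, and outside them the points of SPAG5 and its overlapping neighbor are intermediate.

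Wider stretches shifted by less. In 10 Mb windows with at least 20 kept genes, 193 of 248 windows (77.8%) had a median difference within 0.1 of 0. The median was 0.61 in the first window of chromosome 3 (37 genes) and 0.62 in the second (52 genes, 92.3% of them above 0), and -0.76 over 41 genes in one window of chromosome 1. On chromosome 5, 4 windows had medians of -0.39 to -0.45, and on chromosome 19 a window of 153 genes had -0.38 with 88.9% of its genes lower in set B. For the windows of chromosomes 1 and 3 named here, set A minus mock was 0.11, -0.03 and -0.0023, while set B minus mock was -0.71, 0.59 and 0.56. On chromosome 5 the window starting at 30000001 was an exception, with set A 0.23 above and set B -0.16 below mock. Counts of RNA alone do not show whether DNA, chromatin or regulation differed there.

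The histone gene cluster of chromosome 6 was higher in set B, a group noticed after its values were seen. Its messages, made in S phase, mostly lack poly(A) tails, and these libraries were selected for poly(A). Of 28 histone genes kept there (chr6:26045384-27893891), 14 parted the sets upward and none downward, against 3.15% and 4.71% of all kept genes. Differences above 0 were found for 27 of the 28, while 51% of all kept genes had one below 0. The median difference of the histone genes was 1.01. Their summed level was 146.7, 162.0, 131.9 and 140.4 CPM in set A, 286.5, 306.7, 332.1 and 333.3 CPM in set B and 158.4 to 169.4 CPM in mock cells. The linker histone H1-2 made up the largest part, at 60.4 CPM in set A and 127.9 CPM in set B, and H4C8 went from 5.68 to 23.1 CPM. Of the 32 replication and mitosis genes listed above, 17 were lower and 1 higher in the same libraries without overlap at any size, none of them by 2-fold. In ΔNFATC4 cells 8 of 27 histone genes tested rose and 0 fell by the edgeR quasi-likelihood test (0 also at an unadjusted p under 0.05, by DESeq2 and by limma), against 7.69% and 6.1% of all genes tested, with summed levels of 200.3 to 214.3 CPM.

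Keratins formed 2 of the short runs. KRT80, KRT7, KRT81 and KRT8 are neighbors on chromosome 12 and KRT23, KRT33B, KRT36 and KRT17 on chromosome 17, and all were higher in set B. Their levels were low, up to 12.0 CPM for KRT80 and 9.55 CPM for KRT23. KRT18, the usual partner of KRT8, was lower, at 1.57 CPM in set A and 0.183 CPM in set B.

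ΔNFATC4 against mock served as an independent comparison, since neither group was used to choose the sets. NFATC4 averaged 94.6 ± 8.04 CPM in mock (SD, n = 4) and 343.8 ± 14.9 CPM in ΔNFATC4 cells (SD, n = 3), which includes reads from the plasmid. By the edgeR quasi-likelihood test at a Benjamini-Hochberg adjusted p under 0.05, 1084 of 14094 genes rose (7.69%) and 860 fell (6.1%). Whether the mock and ΔNFATC4 libraries were separate cultures is not stated, so these p-values measure the spread between libraries, which may be technical.

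Of the 453 genes higher in set B, 382 had enough reads in these 7 libraries to be tested. ΔNFATC4 raised 122 of them (31.9%, against 7.69% of all genes) and lowered 14 (3.66%, against 6.1%), with a median log2 fold change of 0.23. Of the 677 genes lower in set B, 655 were tested, and 63 rose (9.62%) and 72 fell (11%), with a median of -0.03. Genes that part the sets were less abundant than most, with median levels of 4.32 CPM (higher) and 1.99 CPM (lower) against 27.7 CPM for all kept genes, and the part of abundance in these shares was not tested. A gene near silent in mock entered the test only where the ΔNFATC4 libraries had enough reads, so it could hardly be called as falling. The part of this filter in the shares was not tested. With no filter beyond 1 count in any library, 132 genes higher in set B rose, and with 50 counts in 3 libraries 83 did. The mean in ΔNFATC4 cells stayed below the set B mean for 428 of the 453 genes higher in set B. These calls rest on the 7 libraries alone. In a fit of all 15 libraries by label, where each of the control and NFATC4-KO labels spans both sets, 326 genes rose, 204 fell and 4 of the genes higher in set B rose. Without ΔNFATC4 replicate 2, 644 genes rose and 458 fell, and without replicate 1 or 3, 485 or 493 fell.

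**Figure D4:**
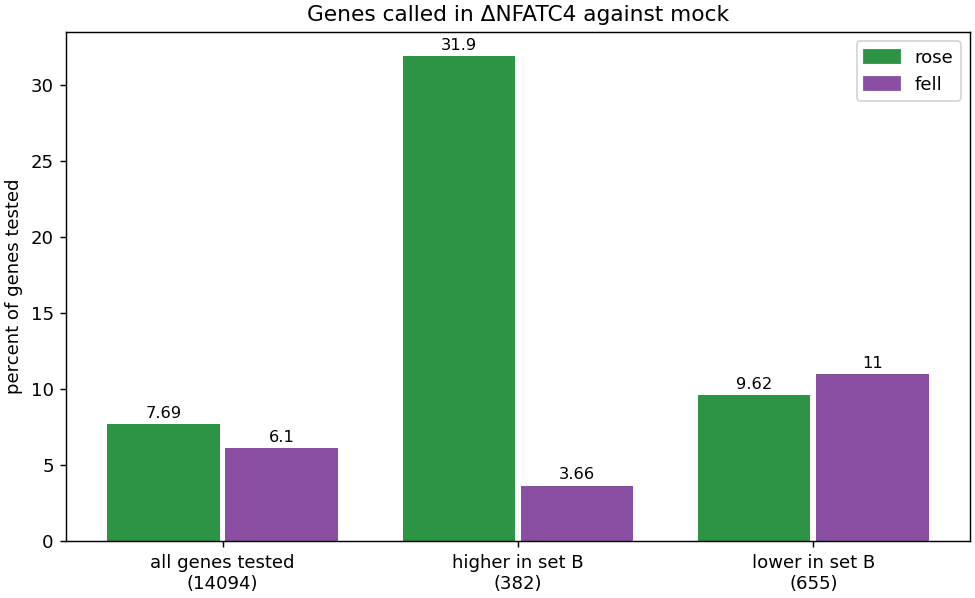
Bars give the percent of genes tested that rose (green) or fell (purple) in ΔNFATC4 against mock at an adjusted p under 0.05, for all 14094 genes, the 382 genes higher and the 655 genes lower in set B. The rising share is 31.9% among genes higher in set B and 7.69% among all genes.

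CYP11B2 moved in opposite directions in the 2 contrasts. It rose from 2.78, 2.41, 2.54 and 1.58 CPM in mock to 38.2, 41.1 and 35.8 CPM with ΔNFATC4 (log2 fold change 4.06 ± 0.12 SE, adjusted p = 4.92e-15, edgeR). CYP11B1 rose too (1.06 ± 0.21, adjusted p = 0.00151), and CYP21A2 rose by a smaller amount (0.24 ± 0.06, adjusted p = 0.0156). STAR had a fold change of 0.13 ± 0.06 with adjusted p = 0.163 in the same edgeR test, but passed in limma (adjusted p = 0.0477) and without mock 1 (edgeR adjusted p = 0.0283). CYP17A1 fell with ΔNFATC4, by 0.45 on the log2 scale (adjusted p = 7.72e-05), as it was lower in set B. PHEX, an endopeptidase gene, rose from 2.39 to 15.7 CPM with ΔNFATC4 and averaged 2.47 CPM in set A and 1.13 CPM in set B. SEL1L3, DGKI and DNAH17 shared that pattern, with log2 fold changes of 1.29, 2.46 and 3.502 in ΔNFATC4 and set differences of -2.96, -2.28 and -1.99.

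FN1 moved the same way in both. It rose from 11.5, 14.4, 17.8 and 17.2 CPM in mock to 53.8, 56.6 and 58.6 CPM with ΔNFATC4 (log2 fold change 1.89 ± 0.10 SE, adjusted p = 7.75e-10, edgeR). So did VGF, a neuropeptide precursor (1.36 ± 0.07, adjusted p = 1.71e-11), the synaptic protein gene CPLX2 (1.45 ± 0.10), VAT1L (1.26 ± 0.09) and ITGB5 (1.05 ± 0.08). In the fit of all 15 libraries FN1 and VGF kept their fold changes but not their calls (edgeR adjusted p = 0.326 and 0.385). ID1 and ID3 rose by 1.40 and 1.33, and ETV4 by 1.24. For ID1 and ID3 this rise began from mock means of 5.83 and 17.3 CPM, far below set A. Their ΔNFATC4 means of 15.3 and 43.3 CPM stayed below the set A means of 18.0 and 49.1 CPM. The set B means were 51.8 and 165.5 CPM. The laminin genes LAMA3 and LAMB3, higher in set B, rose by 1.54 and 1.10.

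Other genes higher in set B did not follow ΔNFATC4. AKR1C3 fell with it, from 67.09 to 50.04 CPM (log2 fold change -0.42 ± 0.07 SE, adjusted p = 0.00047, edgeR), and TSPAN11 and PTGS1, a cyclooxygenase gene, fell by 0.63 each. In the 15-library fit AKR1C3 had the same log2 fold change of -0.42, with an edgeR adjusted p of 0.748. LGR5, DKK1 and SFRP1 had log2 fold changes of -0.03, -0.02 and 0.07, none past the threshold. FSTL1, a secreted glycoprotein gene at 186.4 CPM in set A and 534.2 CPM in set B, fell by 0.24.

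Genes lower in set B that also fell with ΔNFATC4 included lipid genes. SCD, the stearoyl-CoA desaturase, fell from 685.3 to 291.4 CPM (log2 fold change -1.23 ± 0.06 SE, adjusted p = 1.71e-11, edgeR) and stood at 509.3 CPM in set A and 175.7 CPM in set B. INSIG1 fell by 0.83, from 103.5 CPM in mock to 58.2 CPM, close to its set A mean of 63.3 CPM. Of 31 cholesterol genes tested, whether or not they part the sets, 18 fell with ΔNFATC4 and 1 rose (SCARB1), against 6.1% and 7.69% of all genes. Among the 4 of them that part the sets, all lower in set B, INSIG1 alone fell. The receptor FGFR1 and the proteoglycan SPOCK1 fell by 0.57 and 0.56. IGF2, SOAT1, LIPE and APOE, all lower in set B, had log2 fold changes of -0.06, -0.01, -0.02 and -0.08, none past the threshold.

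Within the sets the labels differed as well. With set as a term, 609 of 13868 genes rose in NFATC4-KO against control libraries (4.39%) and 837 fell (6.04%) by the edgeR quasi-likelihood test. Since the set term came from measured levels of these libraries, the counts describe this split of the data. NFATC4 itself had a log2 fold change of -0.10 ± 0.09 SE (adjusted p = 0.514, edgeR), which passed in limma (-0.18, adjusted p = 0.0434) and without control 3 (-0.20, edgeR adjusted p = 0.0282). CYP11B2 had one of -0.01 ± 0.25 SE (adjusted p = 0.99, edgeR), and CYP17A1 fell by 0.74 (adjusted p = 1.13e-05, edgeR). Of the genes higher in set B, 11 of 426 tested rose (2.58%) and 75 fell (17.6%), and of those lower, 13 of 580 rose (2.24%) and 61 fell (10.5%). A fit of 6 libraries that used the replicate number (1, 2 or 3) as a block in place of set called 44 genes up and 95 down. With no set term, 0 genes passed in either direction in the same edgeR test, 657 and 600 had an unadjusted p under 0.05, DESeq2 called 71 and 97, and limma 13 and 13. The counts with the set term moved with single libraries, to 290 and 533 without NFATC4-KO 1, 347 and 488 without control 4, and 232 and 392 without NFATC4-KO 5, while 376 rose without control 1 and 960 without control 3.

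The label effect itself differed between the sets for 43 of 13868 genes (0.31%) by the edgeR quasi-likelihood test of the interaction. Of these 43 genes 10 part the sets, against 7.86% of all kept genes. CYP21A2 stood at 117.6 and 135.3 CPM in the controls and 73.1 and 77.1 CPM in the NFATC4-KO libraries of set A. It stood at 37.05 and 36.95 CPM in the controls and 41.4 and 41.0 CPM in the NFATC4-KO libraries of set B (difference of effects 0.90 ± 0.11 SE, adjusted p = 0.00037). NFATC4 differed by 0.50 ± 0.12 SE (adjusted p = 0.0603, edgeR). Its interaction passed in DESeq2 (adjusted p = 0.0128), in limma (0.0227), with no filter on low counts (edgeR, 0.00141) and without control 4 (edgeR, 0.000897). Leaving out control 4 gave 2732 genes, and leaving out any other library gave between 1 (NFATC4-KO 2) and 23 (control 3).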

How the data were processed

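RNA-Seq was done on 15 libraries of NCI-H295R cells. The authors deposited raw read counts, whole numbers that were not normalized, for 21493 genes in each library, after trimming with fastp, alignment with STAR to GRCh38.p13 and counting with featureCounts. Totals were 18.8 to 28.2 M counts. Symbols were matched for 21400 identifiers.

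Genes passing filterByExpr were scaled by TMM in edgeR 4.0.16 (R 4.3.3), and log2 CPM used a prior count of 2. Set B against set A received no test. ΔNFATC4 against mock, the label with set as a term, and their interaction were tested with edgeR's robust quasi-likelihood test and Benjamini-Hochberg adjustment at 0.05, checked on simulated data. Alternatives used DESeq2 1.42.0, limma 3.58.1, other filters, a replicate block and left-out libraries.

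The sets, lists and tests were chosen with earlier results of these data known, and the chromosome runs and histone group after their values were seen. Genes were named by rule as a fixed group (NFATC4, CYP11B2, CYP11B1, STAR, FN1, AKR1C3, the NFATC and NR4A families, and adrenocortical identity markers), the 12 largest differences each way, up to 4 members of each list that part the sets, and the genes with the smallest p in each test (for ΔNFATC4, 5 each way among the genes higher and among those lower in set B, and 6 each for the label and the interaction). Outside this rule the text also names further list members, genes on in set A or set B only, and genes near the 2-fold limit. The same holds for genes of the chromosome runs and the histone group.

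Deviations of same-numbered control and NFATC4-KO libraries correlated at 0.81, 0.788 and 0.71, where numbers 1 and 2 lie in set A and 3 in set B, and at 0.0431 and 0.0472 within sets. They were treated as paired in the alternative with the block. For ΔNFATC4 and mock the values were 0.101, -0.0945 and 0.0427, which were not taken as pairs. A few list members are not reported here.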

Additional observations from a re-analysis of the deposited data

Results flagged for a closer look

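Single libraries stood apart for some named genes in groups of 4 libraries, which chance does in about 1 of 20 groups. In mock cells 4 of 118 genes were so marked (3.39%). ACSS3 was at 13.53 CPM in mock 4 against 17.96 to 18.32 in the others, KCNK2 at 12.06 CPM in mock 4 against 9.269 to 9.699, ETV4 at 8.098 CPM in mock 3 against 10.35 to 10.52, and ANKFN1 at 99.89 CPM in mock 1 against 80.4 to 81.85.

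In set A 3 of 118 genes were marked (2.54%). ZNF660 was at 1.987 CPM in NFATC4-KO 1, ITGB3 at 0.1621 CPM in control 1 and KRT7 at 0.5449 CPM in NFATC4-KO 2. In set B 8 of 116 genes were marked (6.9%). TSPAN11 was at 100.7 CPM and ZNF660 at 12.97 CPM in control 4. ACSS3 was at 0.9908 CPM, FGFR1 at 70.82 CPM and CD9 at 0.04308 CPM in control 3. ID1 was at 47.9 CPM, VGF at 235.3 CPM and CDH1 at 0.0427 CPM in NFATC4-KO 3. The values of CD9 and CDH1 are 1 count each, with 0 in the other 3 libraries. No gene was marked in the control or NFATC4-KO labels, each of which holds libraries of both sets.

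The label effect differed between the sets, by edgeR's interaction test, for 9 named genes. Set B minus set A was 0.5184 for NR4A1, 0.9009 for CYP21A2, 0.4434 for SCD, 0.5625 for FADS2 and 0.6451 for TUBB4A on the log2 scale. It was -0.5917 for SFRP1, -0.6915 for ANKFN1, -0.7794 for CXADR and -0.635 for NID1. The edgeR call of NR4A1 was lost in 4 of 8 fits with 1 library left out, those without control 1, NFATC4-KO 1, NFATC4-KO 2 or NFATC4-KO 5 (adjusted p = 0.0503, 0.0982, 0.0883 and 0.101). That of SFRP1 was lost in 4 of 8, without control 2, NFATC4-KO 1, NFATC4-KO 2 or NFATC4-KO 5 (edgeR adjusted p = 0.0852, 0.092, 0.0532 and 0.0741). The sets were chosen on measured levels, so these values describe that split.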

How the results depend on the processing

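Genes that part the sets numbered 456 to 472 (higher) and 668 to 713 (lower) with 1 library left out, 420 lower under a filter of 50 counts in 3 libraries, 95 and 259 at 4-fold, and 2481 and 2880 with no fold limit. For ΔNFATC4 against mock, leaving out 1 library gave 644 to 1341 rising, 458 to 1219 falling and 96 to 132 rising among genes higher in set B. Limma called 1331 falling, the fit of all 15 libraries 326, 204 and 4, and a fold over 2 gave 307, 21 and 47. For the label with set as a term, leaving out 1 library gave 232 to 960 rising and 392 to 1179 falling, limma 1134 and 1400, and no set term 0 and 0 in edgeR (657 and 600 at an unadjusted p under 0.05). The interaction count was 498 without a filter, 199 in DESeq2, 206 in limma and 1 to 2732 with 1 library left out. With replicate number as a block, ΔNFATC4 against mock gave 1053 rising and 927 falling, and the label 44 and 95 in a fit of 6 libraries. The label effect on CYP11B2 was -0.2485 to 0.2 with 1 library left out and turned from below to above 0 at 0.0248 without control 1, 0.2 without NFATC4-KO 1, 0.02571 without control 4 and 0.005358 with the replicate block, never past the threshold. The cause of these shifts was not tested. Set B held 0 to 3 counts of CYP11B2 in each library, so counting error limits its level there.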
